A study of Mus musculus with 9 samples.

Results

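A set of 9 genes whose products bring fatty acids into cells or bind them there was followed in mouse brown adipose tissue (BAT) and in primary brown adipocytes with Setdb1 deleted or knocked down. The genes were chosen by name, 9 of the 29386 gene identifiers in the deposited RNA-seq tables: Lpl, Gpihbp1, Cd36, Slc27a1, Slc27a2, Slc27a4, Fabp3, Fabp4 and Fabp5. The series holds 3 separate experiments and 9 libraries. In BAT, 2 control libraries came from mice of the genotype Setdb1 fl/fl; Adipoq-Cre-, and 2 Setdb1 AKO libraries from Setdb1 fl/fl; Adipoq-Cre+ mice, in which a recombinase driven by the adipocyte promoter Adipoq acts on the floxed gene. The mice of all 4 libraries thus carried floxed Setdb1. None of them had Adipoq-Cre with an intact Setdb1, so effects of the recombinase and of the deletion cannot be told apart. The 4-OHT experiment used primary brown adipocytes of the genotype Setdb1 flox/flox; Rosa26Cre-ERT2, in which a ubiquitous recombinase is switched on by 4-hydroxytamoxifen (4-OHT). It compared 1 library given 1 μM 4-OHT with 1 library given ethanol (ETOH), and no cells without the recombinase received 4-OHT. The siRNA experiment compared 1 library of primary brown adipocytes given a control siRNA (siNC) with 2 given siRNA against Setdb1 (siSetdb1). The titles siSetdb1_1 and siSetdb1_2 do not tell whether these are 2 different siRNAs or repeats of 1. Both were fitted as 1 group, so their spread may include a difference between siRNAs. The labels do not explain the prefix TN_CE of the BAT titles and give no age or sex of the mice. They do not say whether libraries of a group of cells came from separate cultures, so each p-value reflects the spread among these libraries alone, which may be technical.

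Reads on genes ran from 15979479 to 16940622 in the BAT libraries, from 17593799 to 18468152 in the siRNA libraries, and were 29911734 in ETOH and 30176359 in 4-OHT. Setdb1 itself read 455 and 473 normalised counts (reads scaled for library size by the authors) in control BAT and 156 and 191 in Setdb1 AKO. Its reads were lower by log2 values of -0.74 in 4-OHT and -1.02 in siSetdb1 cells as well. Adipocyte markers fixed as a list (Adipoq, Plin1, Lep, Cidec, Retn, Ucp1 and Cidea) were found in all 3 experiments. Ucp1, the uncoupling protein that defines brown fat, had between 60942 and 116851 reads in the BAT libraries and between 8133 and 16523 in the cells. The ETOH and 4-OHT libraries also held macrophage RNA: 12 macrophage markers summed to 109895 and 66387 normalised counts there, against 1052 to 1501 in the siRNA cells and 3567 to 5636 in BAT. Of these sums, Lyz2 alone gave 79470 in ETOH and 44281 in 4-OHT. The experiments were scaled separately and differ in depth, so the sums are set side by side without a test.

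Fatty acids reach a brown adipocyte mostly from triglycerides carried in lipoproteins. Lipoprotein lipase, the product of Lpl, frees them at the capillary wall, where the endothelial protein GPIHBP1 holds the enzyme. CD36 is the best known membrane receptor for their uptake, the Slc27a genes encode fatty acid transport proteins that also activate fatty acids to acyl-CoA, and the Fabp genes encode small cytosolic carriers. Fabp4 is the classical adipocyte form, Fabp3 is the form of heart, muscle and brown fat, and Fabp5 was first known from the epidermis. Several of these genes are targets of PPAR nuclear receptors, which partner with RXR at repeats of the half-site AGGTCA.

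On GRCm38 the 3 Fabp genes lie on chromosome 3 (Fabp5, 10012548 to 10016607, and Fabp4, 10204088 to 10208576) and on chromosome 4 (Fabp3, 130308595 to 130315463). Slc27a1 (71568882 to 71587302) and Lpl (68880491 to 68907448) lie on chromosome 8. Slc27a2 (126552407 to 126588243) and Slc27a4 (29802634 to 29817522) lie on chromosome 2, Cd36 on chromosome 5 (17781690 to 17888801) and Gpihbp1 on chromosome 15 (75596628 to 75599481). RefSeq promoter windows of the build GRCm38.p6 were at hand for 5 of the 9 genes. The 250 bases before a start site are shown for Slc27a1, which rose in BAT and had the largest ratio of the 9 in 4-OHT, and for Cd36, the membrane receptor, which was called in no experiment. Capitals mark a PPAR half-site (AGGTCA, or TGACCT on the other strand), a CCAAT box (CCAAT) and a GC box (GGGCGG), each searched on both strands.
Slc27a1 promoter, plus strand, chr8:71568621-71568870: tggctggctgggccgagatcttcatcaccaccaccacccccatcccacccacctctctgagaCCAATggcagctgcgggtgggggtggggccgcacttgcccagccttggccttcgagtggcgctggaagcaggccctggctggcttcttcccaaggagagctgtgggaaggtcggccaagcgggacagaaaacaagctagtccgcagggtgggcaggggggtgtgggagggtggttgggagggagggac
Cd36 promoter, minus strand, chr5:17835897-17836146: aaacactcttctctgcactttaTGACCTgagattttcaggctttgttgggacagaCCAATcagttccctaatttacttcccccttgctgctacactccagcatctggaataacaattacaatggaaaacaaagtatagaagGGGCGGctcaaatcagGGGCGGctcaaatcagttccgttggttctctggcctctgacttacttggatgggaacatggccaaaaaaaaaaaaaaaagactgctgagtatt
The Cd36 window held 1 half-site, 1 CCAAT box and 2 GC boxes. It lies inside the annotated span of this minus-strand gene, which begins at 17888801, and so precedes an internal start site. The Slc27a1 window shown held 1 CCAAT box and no copy of the other motifs. It is 1 of 3 windows of this gene in the table, and the others held 1 GC box, and 3 GC boxes with 1 CCAAT box, and no half-site. Of 32817 promoter windows of this length, 14% held a half-site, 33.8% a CCAAT box and 32.7% a GC box. The direct repeat AGGTCANAGGTCA was in neither window and in 0.0335% of all windows. The Slc27a1 window was 66.4% G and C, the Cd36 window 43.2%, and the median window 52.4%. Such matches describe letters, not sites in use.

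The order of the genes by level was set by Fabp4, which led in all 9 libraries, while the places behind it differed between tissue and cells. Levels are given as RPKM, reads per kilobase of the deposited gene length scaled to the reads on genes of the library, each library on its own scale, since the experiments were normalised separately. In control BAT the mean levels (± SD, n = 2) were 1575 ± 17.1 for Fabp4, 960 ± 342 for Fabp3, 433 ± 42.5 for Cd36 and 278 ± 45.6 for Lpl. Behind these came Gpihbp1 at 76.7 ± 7.3 and Slc27a2 at 75.5 ± 25.8, whose libraries overlapped, then Slc27a1 at 39.5 ± 8.5, Fabp5 at 16.7 ± 3.7 and Slc27a4 at 11.5 ± 0.26. The libraries of no other neighbours in this order overlapped. In Setdb1 AKO BAT the first 4 places were the same, and Slc27a1 at 77.2 ± 3.0 lay within the range of Gpihbp1, 63.5 to 89.9. In ETOH and in 4-OHT the order was Fabp4, Cd36, Lpl, Fabp5, Slc27a1, Slc27a4 and Fabp3, and in all 3 siRNA libraries it was Fabp4, Lpl, Cd36, Fabp5, Fabp3, Slc27a1 and Slc27a4. The 9 genes together took 1.28% to 1.59% of the reads in BAT, 1.32% in 4-OHT, a smaller share in ETOH, and 1.57% to 1.70% in the siRNA cells.

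Fabp3, Gpihbp1, Slc27a2 and Fabp5 stood far apart between tissue and cultured cells. Fabp3 read 718 to 1304 RPKM in the BAT libraries, 48.5 to 70.2 in the siRNA cells and 2.03 and 2.66 in ETOH and 4-OHT. Gpihbp1, the endothelial gene, had 2606 to 3808 reads in each BAT library, 2 in ETOH and 0 in 4-OHT, where a count of 0 allows a level of up to 0.0389 RPKM (3 reads, counting error only). It was taken as 0 reads in the siRNA cells, whose tables list genes with at least 1 read. The endothelial markers Pecam1 and Cdh5 had 2403 to 3931 reads in the BAT libraries and 3 to 37 in the cells. Eng, another of the 13 listed, had 1227 and 656 reads in ETOH and 4-OHT. The 13 summed to 22467 to 26895 normalised counts in BAT, 1951 in ETOH, 1278 in 4-OHT and 672 to 718 in the siRNA cells. Slc27a2 had 2963 to 5959 reads in the BAT libraries and 1 to 3 reads in every library of cells. Fabp5 went the other way, with levels per length of 14.1 to 61.9 in BAT and 140 to 218 in the cells, where 3 of the 9 genes stood above it in each library. Tissue and cells were separate experiments, so these levels are set side by side without a test.

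**Figure D1:**
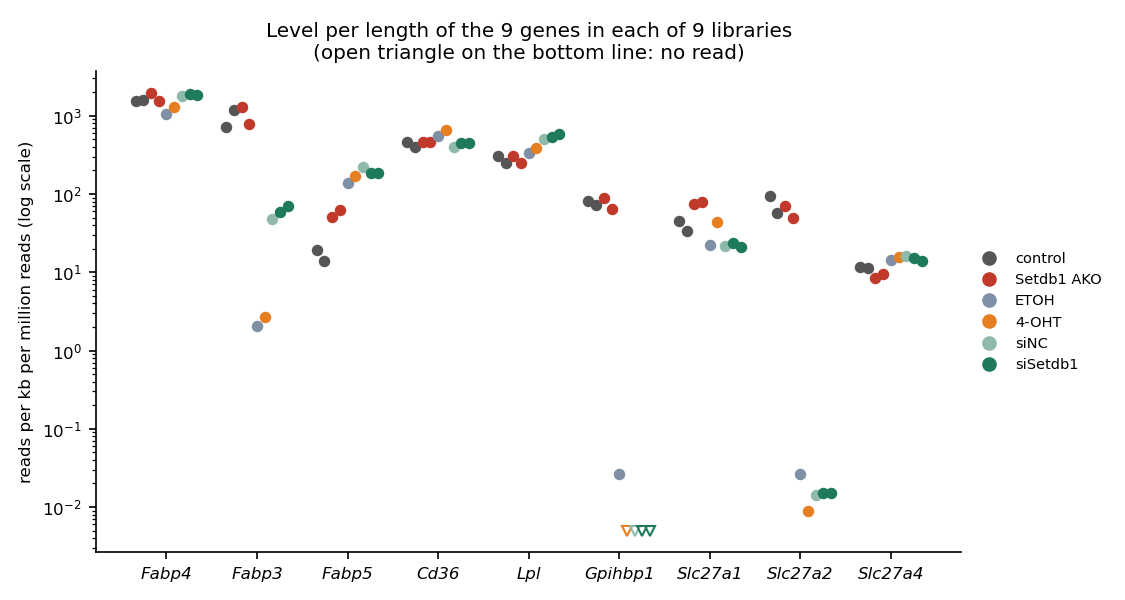
Level of each of the 9 genes in each of the 9 libraries, in RPKM (by deposited gene length), on a log scale; each point is 1 library, coloured by group, and open triangles at the bottom stand for 0 reads. Fabp4 leads in every library, Fabp3, Gpihbp1 and Slc27a2 are high in BAT (gray and red) and low in cells, and Fabp5 is higher in the cells, at 140 to 218.

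The deposited lengths bear on this order. The length given for Fabp4, 4489 bases, equals the whole span of the gene, against 896 bases for its longest protein-coding transcript in GENCODE M21, and for Lpl the lengths were 10478 and 4115. With transcript lengths, Fabp4 in control BAT would read 7893 ± 85.7 and Fabp5 60.5 ± 13.3, and Lpl at 708 would pass Cd36 at 458. In Setdb1 AKO BAT, 3 of the 9 genes kept their place with these lengths, and Fabp5 moved from place 8 to place 5. Comparisons of the same gene between libraries do not depend on the length.

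In BAT, deletion of Setdb1 went with more Fabp5 and more Slc27a1 RNA, while the other 7 genes did not pass the test. The test was limma on log2(normalised count + 1), called at a false discovery rate below 0.05 over 14466 genes, a scale that makes fold changes of low genes look smaller. Of the 9 genes, 2 rose and 0 fell. Over all genes tested, 1.00% rose and 0.677% fell. At an unadjusted p below 0.05, where limma placed 17.7% of all genes, it also gave 2 rising and 0 falling genes of the 9. Of the 9, edgeR and DESeq2 each called 2 rising and 0 falling. Over the same 14466 genes, edgeR called 148 rising and 102 falling, and DESeq2 called more, 364 and 287. The median log2 change was 0.19 over the 9 genes and 0.01 over all genes. Both Setdb1 AKO libraries lay above both controls for Cd36, Fabp4, Fabp5 and Slc27a1, 4 of the 9, and below both for Slc27a4. Over all genes tested, 25.1% lay above and 24.9% below.

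Among the binding proteins, Fabp5 moved and Fabp4 and Fabp3 did not pass. Fabp5 (ENSMUSG00000027533) read 1071 and 818 normalised counts in controls 1 and 2 and 3065 and 3657 in Setdb1 AKO 1 and 2. The groups did not overlap: the lower Setdb1 AKO library was far above the higher control. The mean rose from 945 ± 179 to 3361 ± 419 (SD, n = 2 each), a log2 fold change of 1.84 (SE 0.18; 95% interval 1.40 to 2.27; limma, adjusted p = 0.0066), or 3.57-fold. In bulk tissue, more cells that express a gene and more RNA per cell cannot be told apart. Fabp5 kept its log2 change between 1.64 and 2.03 when each library was left out, but without control 1 (limma, adjusted p = 0.0915) and without control 2 (0.133) the call was lost. It was also lost with no filter on low values (limma, adjusted p = 0.193).

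Fabp5 shares 9.21% of its 31-base words with other annotated genes, 7.24% with Gm6166. That gene itself had 6 and 8 reads in the controls and 29 and 23 in Setdb1 AKO, so its reads are few beside those of Fabp5. Of 8 fibroblast and preadipocyte markers, 2 rose in BAT beside Fabp5, Pi16 and Pdpn, against 1.00% of all genes tested. The 8 markers summed to 4339 and 3973 normalised counts in the controls and 4951 and 5860 in Setdb1 AKO. The part of these cells in the Fabp5 result was not tested. The 12 macrophage markers, of which none was called by limma, edgeR or DESeq2 nor had an unadjusted p below 0.05, summed to 5636 and 3567 in the controls and 4290 and 5001 in Setdb1 AKO, and overlapped.

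Fabp4, the most abundant carrier, read 109045 and 115531 normalised counts in the controls and 149039 and 116310 in Setdb1 AKO. Both Setdb1 AKO libraries lay above both controls, Setdb1 AKO 2 by little, and the fitted log2 change was 0.23 (95% interval -0.54 to 1.00; limma, adjusted p = 0.764). Fabp3 read 9185 and 16033 in the controls and 18302 and 10573 in Setdb1 AKO. The groups overlapped, with a log2 change of 0.20 (95% interval -0.61 to 1.00; limma, adjusted p = 0.812), and without control 1 or without Setdb1 AKO 1 the value turned to -0.20. Skeletal muscle markers summed to 307 and 919 normalised counts in the controls and 424 and 255 in Setdb1 AKO. Both Fabp3 and this sum were thus highest in control 2 and Setdb1 AKO 1 within their groups. Single markers differed: Ckm, Myh1, Myh4 and Pvalb had reads in control 2 and none in either Setdb1 AKO library. Acta1, Mb, Eno3, Tnnt3 and Mylpf were higher in Setdb1 AKO 1 than in Setdb1 AKO 2, and Actn3 was lower (2.06 against 5.16). The part of muscle RNA in Fabp3 was not tested. Fabp3 is also uncertain because 37.3% of its 31-base words occur in other genes, mostly the pseudogene Fabp3-ps1, and because Zcchc17 and Gm10570 overlap it on the opposite strand while the strand setting of the counting is not stated.

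**Figure D2:**
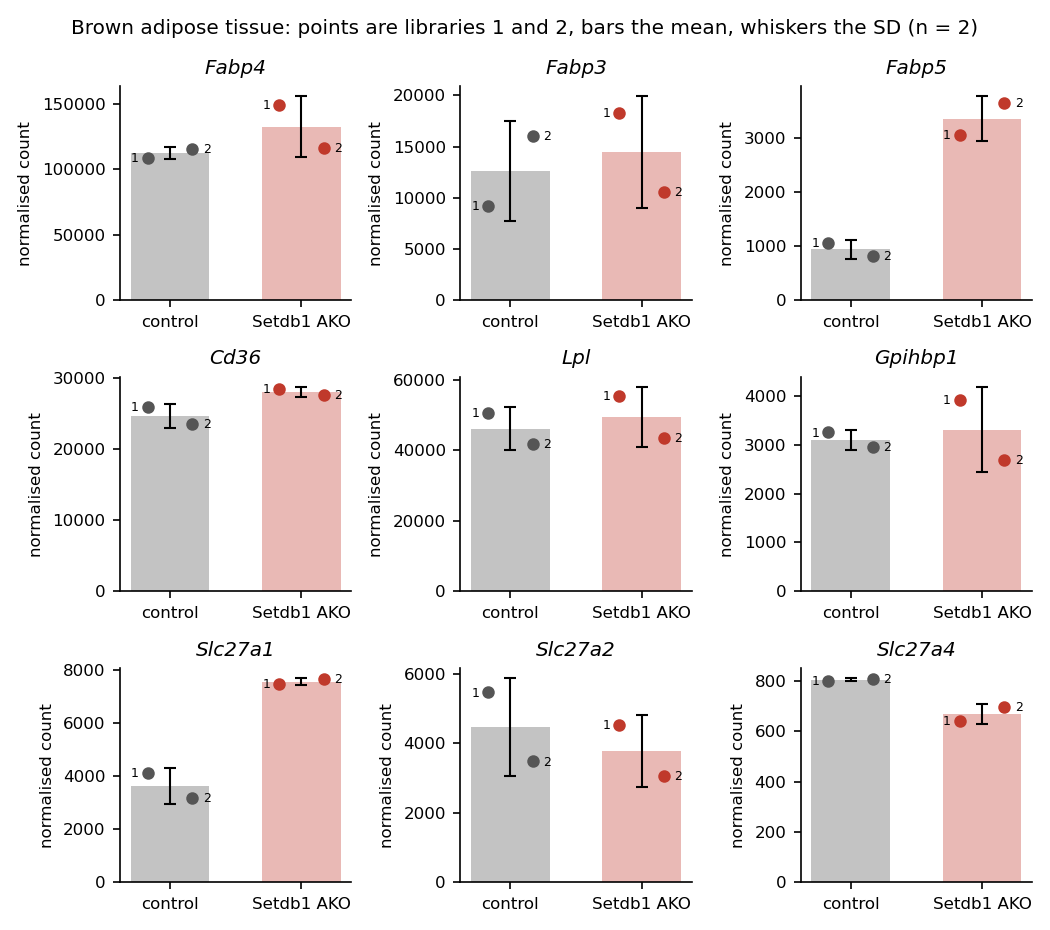
Normalised counts of the 9 genes in the 4 BAT libraries; points numbered 1 and 2 are the libraries of each group, bars the group mean and whiskers the SD (n = 2), each panel on its own axis from 0. Fabp5 (945 to 3361 on average) and Slc27a1 (3652 to 7566) have both Setdb1 AKO points well above both control points, Slc27a4 has them below, and Fabp3 and Slc27a2 spread widely within both groups.

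Among the transport proteins, Slc27a1 rose. Slc27a1 (ENSMUSG00000031808), the gene of FATP1, an insulin-responsive transporter of fat and muscle, read 4130 and 3174 normalised counts in the controls and 7471 and 7661 in Setdb1 AKO. The Setdb1 AKO libraries were close to each other and clear of both controls. The mean rose from 3652 ± 676 to 7566 ± 134 (SD, n = 2 each), a log2 fold change of 1.06 (SE 0.18; 95% interval 0.65 to 1.48; limma, adjusted p = 0.0388), or 2.09-fold. This call was near the threshold. It was lost when any library was left out, with adjusted p values (limma) of 0.225 or 0.367 in the absence of control 1 or 2, and of 0.0585 or 0.0803 in the absence of Setdb1 AKO 1 or 2, at log2 changes of 0.87 to 1.25. With no filter on low values it was lost too (limma, adjusted p = 0.234). The authors' deposited table gives adjusted p values of 3.22e-05 for Slc27a1 and 3.78e-14 for Fabp5.

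Slc27a2, the gene of FATP2, a very long chain acyl-CoA synthetase of liver and kidney, read 5466 and 3484 normalised counts in the controls and 4520 and 3057 in Setdb1 AKO. The groups overlapped (log2 change -0.23; 95% interval -0.86 to 0.40; limma, adjusted p = 0.706). Slc27a4, the gene of FATP4, read 801 and 810 in the controls and 642 and 698 in Setdb1 AKO. Both Setdb1 AKO libraries lay below both controls, yet the log2 change of -0.27 did not pass (95% interval -0.62 to 0.08; limma, adjusted p = 0.407). Among the 3 transporters, then, 1 rose in BAT and the intervals of the others span 0.

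Lpl and Gpihbp1, whose products act at the capillary wall, and the membrane receptor gene Cd36 read close to their controls. Lpl read 50528 and 41774 normalised counts in the controls and 55419 and 43433 in Setdb1 AKO, a log2 change of 0.09 (95% interval -0.52 to 0.71; limma, adjusted p = 0.889). Gpihbp1 read 3249 and 2960 against 3918 and 2689, a log2 change of 0.07 (95% interval -0.41 to 0.54; limma, adjusted p = 0.904). For both genes the 2 groups overlapped. Cd36 read 25845 and 23465 against 28476 and 27544, with both Setdb1 AKO libraries above both controls and a log2 change of 0.19 (95% interval -0.29 to 0.66; limma, adjusted p = 0.685). These intervals leave room for moderate changes in either direction.

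In the 4-OHT experiment, 7 of the 9 genes passed the count minimum, and Slc27a1 was the 1 of these 7 beyond 1.5-fold. With 1 library per group there is no test, and intervals cover counting error only. Slc27a1 had 3866 counts in ETOH and 7760 in 4-OHT, a ratio of 2.07 after TMM scaling (95% counting interval 1.99 to 2.15) and a log2 ratio of 1.05. Of 13969 genes with at least 50 counts in 1 library, 4.04% were beyond 1.5-fold higher and 6.36% beyond 1.5-fold lower, and 1.24% were at least 2-fold higher. Of the 145 genes that rose in BAT, 110 passed this minimum, and 39 of those 110 (35.5%) were beyond 1.5-fold higher in 4-OHT. The authors' deposited table gives Slc27a1 an adjusted p of 0.755 there, for 1 library against 1.

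All 7 genes past the count minimum read higher in 4-OHT, with a median log2 ratio of 0.34 against 0.00 over all genes. Fabp5 had 14958 counts in ETOH and 18208 in 4-OHT, a ratio of 1.25 (1.23 to 1.28). The ratios were 1.27 for Cd36, 1.26 for Fabp4, 1.19 for Lpl and 1.12 for Slc27a4. Fabp3, with 50 and 66 counts, had a log2 ratio of 0.43, and the counting interval of the linear ratio, 0.93 to 2.00, includes 1. Gpihbp1 (2 and 0 counts) and Slc27a2 (3 and 1) lay below the minimum. The 7 adipocyte markers had a median log2 ratio of 0.40 and summed to 65036 normalised counts in ETOH and 85392 in 4-OHT. The 12 macrophage markers had a median of -0.50, with 0 of 12 above 0 and 5 beyond 1.5-fold lower, and the macrophage lysozyme gene Lyz2 went from 80947 to 43473 counts. The part of this shift in the ratios of the 7 genes was not tested.

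In siSetdb1 cells none of the 7 genes past the filter was called by limma, edgeR or DESeq2. Setdb1 itself, the target of the siRNA, was not called by limma here either, at a log2 change of -1.02. The lack of a call thus does not show that a gene was unchanged. Over 15224 genes, limma called 0.0328% as risen and 0.00657% as fallen, so few genes of any kind passed. At an unadjusted p below 0.05 there were 2 of the 7, against 5.06% of all genes. The first was Fabp5, at 14196 in siNC against 12000.5 and 12037 with siSetdb1 (normalised counts). Both siSetdb1 libraries lay below siNC, the opposite side from BAT (log2 change -0.24; 95% interval -0.47 to -0.01; limma, adjusted p = 0.94). The second was Fabp3, with 727 in siNC and 875 and 1036 in siSetdb1 (log2 change 0.39; 95% interval 0.07 to 0.70; limma, adjusted p = 0.939). Macrophage markers also read lower in siSetdb1: the 11 past the filter had a median log2 change of -0.68, 2 of 11 were above 0, and 8 lay below siNC in both libraries. Limma called none of them, 3 had an unadjusted p below 0.05 on the lower side, and edgeR and DESeq2 each called 1 as lower. The macrophage list summed to 1501 normalised counts in siNC and 1125 and 1052 in siSetdb1. Lyz2 gave 527 of this sum in siNC and 244 and 166 in siSetdb1. Gpnmb, 1 of the 2 markers above 0, read 481 against 597 and 523. Other markers had few counts, such as Mrc1 with 14.8 and Adgre1 with 35.5 in siNC. The 7 adipocyte markers summed to 88344 against 77865 and 83956. The part of these shifts in the values of Fabp5 and Fabp3 was not tested.

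Slc27a1 did not follow its BAT pattern in these cells. Its normalised counts were 2306 in siNC against 2463 and 2216 in siSetdb1, on either side of the control, a log2 change of 0.02 (95% interval -0.24 to 0.27; limma, adjusted p = 0.987). This interval lies below that of BAT, 0.65 to 1.48; the difference itself was not tested, and the log2 change of Setdb1 was -1.02 here and -1.42 in BAT. Log2 changes were 0.14 for Cd36, 0.14 for Lpl, 0.05 for Fabp4 and -0.16 for Slc27a4, with all their intervals spanning 0. Both siSetdb1 libraries lay above siNC for Cd36, Lpl, Fabp3 and Fabp4 and below it for Fabp5 and Slc27a4. Of all genes, 34.1% lay above and 33.8% below in both. The fit has 1 residual degree of freedom and takes the lone siNC library to vary like the siSetdb1 libraries.

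**Figure D3:**
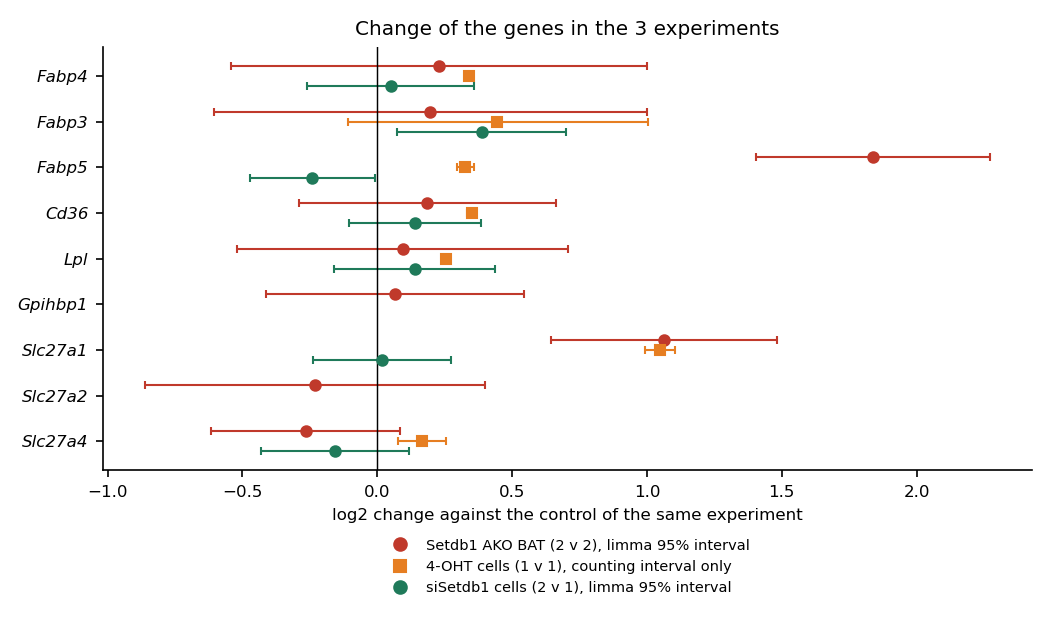
Log2 change of each gene against the control of its own experiment; red circles are BAT (2 against 2 libraries) and green circles siSetdb1 cells (2 against 1), both with limma 95% intervals, and orange squares 4-OHT cells (1 against 1) with counting intervals only. Slc27a1 lies near 1 in BAT and 4-OHT and near 0 in siSetdb1 cells, and Fabp5 lies at 1.84 in BAT, 0.33 in 4-OHT and -0.24 in siSetdb1 cells.

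The mix within each family differed between the BAT groups, given here as a description with no test of its own. Fabp5 made up 0.84% and 0.50% of the summed levels per length of the 3 Fabp genes in the controls and 1.53% and 2.58% in Setdb1 AKO. For each Fabp5 unit there were 80.9 and 112 of Fabp4 in the controls and 38.6 and 25.3 in Setdb1 AKO. In the cells Fabp5 held 8.84% to 11.6% of the sum. Slc27a1 made up 30.2% and 32.9% of the 3 Slc27a genes in the controls and 48.7% and 57.4% in Setdb1 AKO, where it passed Slc27a2. The summed Slc27a levels, 151 and 102 in the controls and 154 and 138 in Setdb1 AKO, overlapped. In ETOH and 4-OHT, Slc27a1 held 60.4% and 73.8%, and in the siRNA cells 57.5% to 60.6%. With transcript lengths, the mean share of Slc27a1 in BAT would go from 43.0% to 65.0%, and that of Fabp5 from 0.68% to 2.02%.

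**Figure D4:**
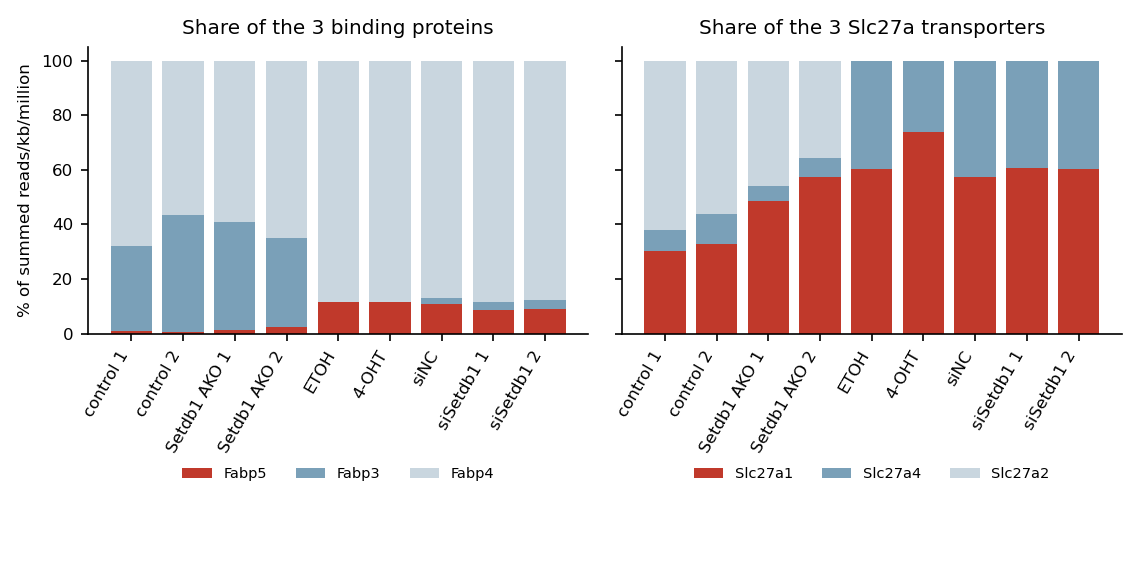
Share of each gene in the summed level per length (deposited gene length) of the 3 Fabp genes (left) and the 3 Slc27a genes (right), in percent, 1 bar per library. The Slc27a1 share (red, right) is 30.2% and 32.9% in control BAT and 48.7% and 57.4% in Setdb1 AKO, and Slc27a2 (light) is visible in BAT libraries only.

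Genes that work beside the 9 were read out from 4 lists. Of 17 genes of lipase control and lipoprotein receptors, 13 passed the BAT filter, and limma and edgeR called none in either direction. At an unadjusted p below 0.05 (limma) there were 3 rising and 1 falling, where 17.7% of all genes lay in either direction. DESeq2 called 2 as higher, where it called 364 of all 14466 genes as higher. The list median was 0.30. Vldlr, a receptor that binds triglyceride-rich lipoproteins beside Lpl, read 1702 and 2305 normalised counts in the controls and 3482 and 3292 in Setdb1 AKO (log2 change 0.77; limma, adjusted p = 0.0912). Apoc3, whose product restrains Lpl, had a log2 change of 1.38 from few reads (limma, adjusted p = 0.191). In 4-OHT 3 of 10 were beyond 1.5-fold higher and 0 lower, against 4.04% and 6.36% of all genes. These 3 were the endothelial lipase gene Lipg with 59 and 282 counts (log2 ratio 2.26), Apoc1 (1.07) and Vldlr (0.61). In siSetdb1 cells none of 13 was called by limma, edgeR or DESeq2, nor had an unadjusted p below 0.05, and the median was 0.00.

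Acyl-CoA synthetases trap fatty acids inside the cell. The list of these synthetases and other uptake partners held 2 genes that rose and 1 that fell in BAT. They were among 17 past the filter, with a median of 0.14. Over all genes tested in BAT, 1.00% rose and 0.677% fell. Got2, the mitochondrial aspartate aminotransferase also described as a plasma membrane fatty acid binding protein, rose from 885 ± 69.2 to 1630 ± 59.1 normalised counts (SD, n = 2; log2 change 0.88; limma, adjusted p = 0.0384). Acsl5 rose from 3261 ± 265 to 5838 ± 291 (log2 change 0.84; limma, adjusted p = 0.0496). Acsl3 fell from 1051 ± 140 to 503 ± 48.6 (log2 change -1.06; limma, adjusted p = 0.0353). The 3 calls were lost with each library left out and with no filter, where the adjusted p (limma) ran from 0.0512 to 0.310 for Acsl3, 0.0678 to 0.416 for Acsl5 and 0.0585 to 0.306 for Got2, and the Acsl5 call was also lost with edgeR (adjusted p = 0.0585), with a pseudocount of 0.5 (limma, 0.0510) and with TMM scaling (limma, 0.0513). In 4-OHT the 1 gene of 15 beyond 1.5-fold was Dbi, the acyl-CoA binding protein (log2 ratio 0.62), where 4.04% of all genes were beyond 1.5-fold higher. Acsl3 read 785 and 773 counts and Acsl5 1393 and 1292 there, and Got2 had a log2 ratio of 0.32. In siSetdb1 cells 0 of 16 were called by limma, edgeR or DESeq2, and 0 had an unadjusted p below 0.05.

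The remaining lists held little that moved. Of 10 other members of the Slc27a and Fabp families, 1 passed the BAT filter, Slc27a3, with a log2 change of -1.06 (limma, adjusted p = 0.303). This value came from few reads, 25.7 and 21.3 normalised counts in the controls and 9.26 and 12.4 in Setdb1 AKO. In 4-OHT Slc27a3 and Fabp7 had log2 ratios of -0.49 and -0.25. In siSetdb1 cells 0 of 3 were called by limma, edgeR or DESeq2, and 0 had an unadjusted p below 0.05. Of 13 PPAR and partner regulators, limma, edgeR and DESeq2 called 0 in BAT, 1 had an unadjusted p below 0.05, and the median was -0.04. That gene was Cebpa, an adipocyte transcription factor (log2 change 0.44; limma, adjusted p = 0.274), followed by Rxrb (-0.34) and Ppargc1b (0.32). In 4-OHT, 1 of 12 regulators was beyond 1.5-fold lower, against 6.36% of all genes. It was Meox2 (log2 ratio -0.86), an endothelial regulator of fatty acid uptake, with 205 and 109 counts. Ppara (0.55) and Ppargc1a (0.52) had the next largest ratios. In siSetdb1 cells 0 of 12 were called by limma, edgeR or DESeq2, and 1 had an unadjusted p below 0.05.

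Of the 7 genes that passed the filters of all 3 experiments, Fabp5 had the largest mean absolute log2 difference (0.90), and its closest matches were looked up. The distance was Euclidean over 5 log2 differences, each Setdb1 AKO library against the control mean, 4-OHT against ETOH and each siSetdb1 library against siNC, among 12215 genes. The differences within an experiment share their controls. The nearest protein-coding genes were Zfp938 (distance 0.40), Aspg (0.41), Zfp445 (0.47), Slc1a4 (0.50) and Acot11 (0.51). Slc1a4 encodes a neutral amino acid transporter, Acot11 an acyl-CoA thioesterase expressed in brown fat. For Slc27a1, a gene taken after its values were seen, the nearest were C4b (0.32), Cend1 (0.39), Aldh1l1 (0.40), Tmem182 (0.42) and Mfge8 (0.42).

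Neighbours of the 2 genes that rose were examined over 250 kb on either side, a window chosen after the values were seen. Around Fabp5, 3 of 11 neighbours passed the BAT filter and limma called 0 of them, namely Pag1 (log2 change 0.43), Gm9833 (-0.28) and Fabp4 (0.23), 196 kb away. Fabp9, a testis form beside Fabp4, had 0 and 1 reads in the controls and 53 and 6 in Setdb1 AKO and stayed below the filter. Around Slc27a1, 24 of 30 neighbours were tested and limma called 0. Nxnl1, the gene of a cone survival factor of the retina, runs in the opposite direction with its start at -2.28 kb from that of Slc27a1. It read 23.8 and 11.2 normalised counts in the controls and 59.7 and 47.5 in Setdb1 AKO, above both controls, with a log2 change of 1.64 (limma, adjusted p = 0.135).

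**Figure D5:**
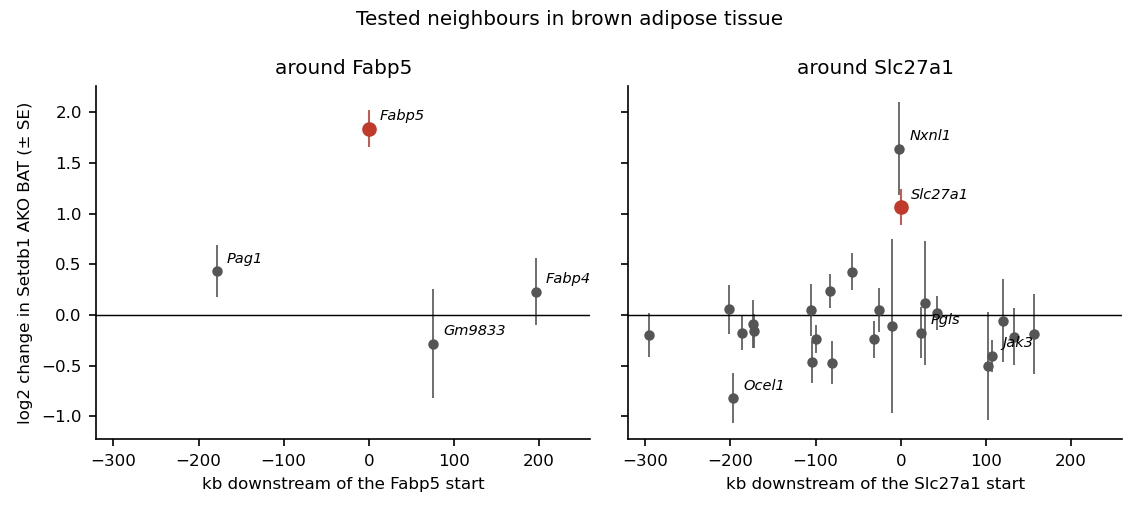
Log2 change in Setdb1 AKO BAT (circles, whiskers ± SE) of tested genes by distance of their start from the start of Fabp5 (left) or Slc27a1 (right), in kb along the direction of that gene. Fabp5 (1.84) and Slc27a1 (1.06) are in red; Nxnl1 (1.64) next to Slc27a1 is the other point above 1.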

How the data were processed

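Libraries of oligo(dT)-selected mRNA were made with a NEBNext Ultra II kit and read on an Illumina NovaSeq, per the labels. Tools listed in the submitters' processing notes, without roles, are STAR 2.7.10a, Trimmomatic 0.39, DESeq2 1.36.0 and featureCounts 2.0.3, and the build is GRCm38; the strand setting and the treatment of reads with several matches are not given in the sources used here. The deposited BAT and siRNA tables hold a signal, the read count of a gene times 1 factor per library. For 4-OHT the deposited values are a raw count, its scaled signal and an FPKM. Each deposited table also gives the authors' log2 fold change, p-value and gene length, per the file headers.

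The 9 genes and the gene lists were chosen with earlier results of these data known. Named genes were the 9, Setdb1, every listed gene that passed a test and otherwise the 3 listed genes with the smallest p in BAT and the 3 with the largest ratio in 4-OHT; other names were chosen after their values were seen. A gene that this rule names is not reported here. Dividing the signal by the worth of 1 read gave whole reads, to within 0.05, for 100% of values in the BAT and siRNA libraries. The siRNA tables were joined through siNC, which had equal reads in all 19381 shared genes (link factor 1.0024). Genes that reached 10 normalised counts in 2 or more BAT libraries, or in 1 or more siRNA libraries, were fitted with limma 3.58.1 on log2(normalised count + 1), lmFit and eBayes with a trend, under R 4.3.3, with Benjamini-Hochberg adjustment over all genes. edgeR 4.0.16 on recovered reads, the planned test for raw counts, called 148 genes higher and 102 lower in BAT, against 145 and 98 by limma; DESeq2 1.42.0 was run as well. The BAT labels share the replicate numbers 1 and 2, but nothing says that they pair mice, and they were not used as a block. For 4-OHT, log2 ratios of TMM-scaled CPM with a prior count of 2 were described. Motifs were counted in RefSeq promoter windows, and shared 31-base words and transcript lengths were taken from GENCODE M21.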

Additional observations from a re-analysis of the deposited data

Results flagged for a closer look

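Fabp5 stood out because its fitted change had opposite signs in 2 experiments, although limma called the change in BAT only. It had a log2 change of 1.84 in Setdb1 AKO BAT, with both libraries above both controls. Both siSetdb1 libraries lay below siNC, at -0.24 each, as was so for 33.8% of all genes. In 4-OHT its log2 ratio was 0.33, the same sign as in BAT, from 1 library per group. Macrophage markers were lower in the siSetdb1 libraries as well, with a median log2 change of -0.68 over 11 genes, none called by limma and 1 called as lower by edgeR and by DESeq2, and their part was not tested. The difference between the experiments was not tested, since they share no library and were normalised separately.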

How the results depend on the processing

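With 2 BAT libraries per group and single control libraries in the cells, calls rest on few libraries. With no filter on low values 0 of the 9 genes rose in BAT, and leaving out 1 library gave 0 to 1. Over all genes in BAT, 11 rose and 0 fell with no filter, 364 and 287 with DESeq2, and 22 to 98 and 0 to 59 with 1 library left out. In siRNA cells, 3 rose and 0 fell with a pseudocount of 0.5 or of 5, 0 and 0 with no filter, 22 and 7 with a filter of 50, 53 and 12 with TMM scaling, 29 and 8 with edgeR, and 8 and 3 with DESeq2, against 5 and 1. In 4-OHT without a count minimum, 2 of the 9 were beyond 1.5-fold lower, Gpihbp1 and Slc27a2, from at most 3 reads. The causes of the other changes were not tested.

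Signs turned for genes that were not called. With each BAT library left out in turn, Lpl ran from -0.0811 to 0.27 (below 0 without control 2 or Setdb1 AKO 1), Gpihbp1 from -0.21 to 0.34 (the same), Fabp3 from -0.20 to 0.60 (below 0 without control 1 or Setdb1 AKO 1), and Slc27a2 from -0.56 to 0.0935 (above 0 without control 1 or Setdb1 AKO 2). Acsl3 in 4-OHT was at -0.0348 with scaling by total counts.

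With transcript lengths, an alternative added after seeing the data, 7 of the 9 genes kept their place in control BAT, 4-OHT, siNC and siSetdb1, 5 in ETOH and 3 in Setdb1 AKO BAT. The authors' FPKM gave the same order in ETOH and 4-OHT.

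Deviations of same-numbered BAT libraries from their group means had a correlation of -0.0151 over 14466 genes. With 2 libraries per group, this value cannot decide whether the numbers pair the libraries. With a replicate block, 2 of the 9 genes rose still (limma, adjusted p = 0.0054 for Fabp5 and 0.0443 for Slc27a1), 181 genes rose and 118 fell in all, and Acsl5 was not called (0.0654).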
